A study of Mus musculus with 6 samples.

Results

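The T cell receptor chain genes of the mouse were followed in activated OT-I CD8 T cells, by taking every row of the count table whose symbol names a variable (V), diversity (D), joining (J) or constant (C) gene of the alpha, beta, delta or gamma chain. The rule gave 267 of the 49492 rows, and all 267 were found by symbol in the GENCODE annotation of the GRCm38 genome. Of these, 64 had no count in any library, 105 had at least 10 counts in every library and 119 passed the filter on low counts and were tested. Pseudogenes made up 44 of the 267 rows.

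Libraries labelled KO (replicates 4, 5 and 6) came from NIK-CD4Cre-OT-I mice and libraries labelled WT (replicates 1, 2 and 3) from wild type OT-I mice, so that both groups carried the OT-I receptor transgene. All mice were C57/BL6 and 6 to 8 weeks old. Naive CD8 T cells of the spleen were stimulated for 24 hours with anti-CD3 on the plate at 1 µg/ml and soluble anti-CD28 at 1 µg/ml. NIK is the kinase encoded by Map3k14, and Cre driven by Cd4 sequences is active from the thymus onwards, before the CD8 lineage is chosen. The labels give neither the number of transgene copies nor the state of the Rag genes, which decides whether endogenous receptor genes can still rearrange, nor do they say that the libraries came from separate mice. The p-values therefore measure the spread between these libraries, which may be technical.

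A T cell receptor is a pair of chains, each assembled in the thymus by cutting and joining 1 V, 1 J and, in beta and delta chains, 1 D segment, and spliced in the transcript to a constant gene. A rearranged beta transgene generally keeps the endogenous beta genes from completing rearrangement (allelic exclusion), while exclusion of the alpha genes is looser, and unrearranged D, J and C genes can be transcribed from their own promoters. The OT-I receptor recognises an ovalbumin peptide on the class I molecule H-2Kb. Its alpha chain uses Vα2, encoded by the Trav14 family, with Traj33, and its beta chain uses Vβ5, encoded by Trbv12-1 or Trbv12-2, with Trbj2-7, which lies in the cluster just before the constant gene Trbc2.

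The sequences below show how far reads could be told apart between the gene copies on which the results turn. Trbv12-1 and Trbv12-2 are the Vβ5 genes of mouse chromosome 6, and bases 121 to 360 of their coding sequences differ at 30 of 240 positions, shown in capitals. They are given 5′ to 3′ on the plus strand of GRCm38, at chr6:41113816-41114055 and chr6:41119113-41119352, from the GENCODE M21 transcripts, as are all sequences here.
Trbv12-1: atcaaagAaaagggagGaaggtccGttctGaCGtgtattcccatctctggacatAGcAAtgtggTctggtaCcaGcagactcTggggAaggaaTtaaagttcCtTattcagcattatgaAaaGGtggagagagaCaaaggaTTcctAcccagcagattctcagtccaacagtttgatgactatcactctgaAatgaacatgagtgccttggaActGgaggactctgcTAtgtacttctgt
Trbv12-2: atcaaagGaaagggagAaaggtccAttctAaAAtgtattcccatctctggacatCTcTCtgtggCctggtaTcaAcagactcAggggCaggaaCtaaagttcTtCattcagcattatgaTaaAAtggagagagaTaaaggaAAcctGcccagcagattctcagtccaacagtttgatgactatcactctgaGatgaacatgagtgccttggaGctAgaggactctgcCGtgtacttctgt
Over the whole coding sequence of 372 bases the pair differed at 44 positions (88.17% identity). Every 50-base stretch of Trbv12-1 and 98.8% of those of Trbv12-2 occurred in no other annotated transcript. Read length, not given in the sources used here, was taken as 50 bases for this purpose.

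The constant genes Trbc1 and Trbc2 were far more alike, with 23 differences in 518 coding bases (95.56% identity) and 1 difference in the first 360 bases. The next 120 bases, 361 to 480, hold 14 differences, again in capitals. These stretches are spliced, within chr6:41538578-41539315 for Trbc1 and chr6:41547090-41547858 for Trbc2, both on the plus strand.
Trbc1: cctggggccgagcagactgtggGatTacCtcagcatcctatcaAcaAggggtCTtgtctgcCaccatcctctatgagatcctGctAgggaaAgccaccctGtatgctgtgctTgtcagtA
Trbc2: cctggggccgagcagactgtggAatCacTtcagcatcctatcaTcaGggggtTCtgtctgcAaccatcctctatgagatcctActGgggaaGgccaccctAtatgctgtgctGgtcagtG
Of the 50-base stretches, 59.5% of those of Trbc1 and 56.0% of those of Trbc2 occurred in no other transcript.

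The 9 Trav14 genes are copies spread over duplicated parts of chromosome 14, with 92.58% to 100% identity over their 36 pairs and 2 identical pairs. Bases 121 to 240 of the coding sequence of Trav14-1 (chr14:53554315-53554434, plus strand) differ from those of Trav14d-1 (chr14:52855923-52856042, plus strand) at 8 positions, in capitals, while Trav14n-1 (chr14:53166935-53167054, plus strand) has the letters of Trav14d-1 throughout.
Trav14-1: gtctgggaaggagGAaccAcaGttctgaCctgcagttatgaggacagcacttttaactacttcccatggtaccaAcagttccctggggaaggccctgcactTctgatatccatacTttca
Trav14d-1: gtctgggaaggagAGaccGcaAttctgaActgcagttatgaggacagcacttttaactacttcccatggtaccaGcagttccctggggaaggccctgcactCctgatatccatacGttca
Trav14n-1: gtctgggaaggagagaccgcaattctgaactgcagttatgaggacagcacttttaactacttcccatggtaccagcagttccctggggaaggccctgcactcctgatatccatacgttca
The J segments of the OT-I chains are Traj33 (chr14:54185358-54185414, plus strand) and Trbj2-7 (chr6:41543810-41543856, plus strand), given whole with no letters in capitals because they are single genes with no near copy compared here.
Traj33: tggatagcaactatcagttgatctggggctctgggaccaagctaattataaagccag
Trbj2-7: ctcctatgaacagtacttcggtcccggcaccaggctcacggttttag

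Total counts were 41311346 to 47851445 per library, so that 3 counts, the most that a count of 0 allows, are 0.0627 to 0.0722 CPM, where CPM are counts scaled to a common library size. Such floors cover counting error only. The 267 genes took 0.126% to 0.139% of the counts in libraries labelled KO and 0.136% to 0.159% in libraries labelled WT. Map3k14 had 2425, 2837 and 2271 counts in libraries labelled KO, against 2406, 2992 and 3025 in those labelled WT (log2 fold -0.12, SE 0.11, edgeR adjusted p = 0.81), so its level did not separate the genotypes and groups are named here by their labels. CD8 T cell markers summed to 1446 to 1520 CPM in libraries labelled KO and 1399 to 1511 CPM in those labelled WT. That sum includes Trac, which was lower in KO (231.8 CPM in KO and 265.8 CPM in WT), while the averages of its 4 other genes were higher in KO. Cd4, the coreceptor of the other T cell lineage, averaged 0.828 CPM in KO and 0.608 CPM in WT. It is 1 of 4 listed CD4 T cell markers, of which 1 had a positive and 3 a negative log2 fold. Together these 4 genes summed to 11.2 to 16.9 CPM in KO and 13.4 to 27.3 CPM in WT. In bulk RNA, fewer cells of a type and less RNA per cell cannot be told apart.

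Trbv12-1 held nearly all counts that fell on beta V genes, and its level was lower in libraries labelled KO. It had 6205, 5943 and 5271 counts, or 129.7, 135.1 and 126.8 CPM, in KO replicates 4, 5 and 6, against 11975, 8658 and 9527 counts, or 266.7, 189.5 and 205.6 CPM, in WT replicates 1, 2 and 3. The libraries labelled KO lay close together and all under the lowest library labelled WT, while WT replicate 1 stood above the other libraries of its group. The means were 130.5 ± 4.18 CPM in KO and 220.6 ± 40.7 CPM in WT (SD, n = 3 each), a log2 fold of -0.76 (SE 0.12).

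The test outcome for Trbv12-1 differed between tools. Its edgeR p was 4.3e-04 before adjustment and 0.48 after it, adjusted over 15186 genes, so edgeR did not call it. DESeq2 called it, with an adjusted p of 2.8e-06. Without WT replicate 1 edgeR called it too (adjusted p = 0.015), at a smaller log2 fold of -0.60. In that fit Trbv12-1 was the 1 segment called of 123 tested, beside 119 calls among 15584 genes (0.764%).

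Over all members edgeR called 0 of 119, limma-voom called 0, and DESeq2 called 1, Trbv12-1, of the 111 members with an adjusted p. Across the whole table edgeR called 1 of 15186 genes (0.00659%) and DESeq2 96 of 14608 (0.657%). At an unadjusted edgeR p under 0.05, 6 members were higher and 4 lower in libraries labelled KO, against 3.82% of all genes higher and 3.44% lower. The groups did not overlap for 15 tested members higher and 6 lower in KO, against 6.68% and 6.07% of all genes. Of the 119 tested, 87 had a positive and 32 a negative log2 fold, with a median of 0.12, beside 7960 positive and 7226 negative folds and a median of 0.0071 among all genes.

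The share of Trbv counts in Trbv12-1 was 98.76%, 98.89% and 98.62% in KO replicates 4, 5 and 6, against 99.52%, 99.4% and 99.31% in WT replicates 1, 2 and 3. The remainder was thus small in every library, and the KO shares lay under the WT shares without overlap. The means were 98.75% ± 0.135 in KO and 99.41% ± 0.103 in WT (SD, n = 3 each; exact two-sided permutation p = 0.10, adjusted p = 0.23 over 16 library measures). An exact p of 0.1 is the smallest that 3 libraries against 3 can give.

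The other 34 Trbv genes together had 78, 67 and 74 counts in libraries labelled KO, against 58, 52 and 66 in libraries labelled WT. No one of them reached 10 counts in every library, and 13 were at 0 in all 6. Their summed level was 1.65 ± 0.130 CPM in KO and 1.29 ± 0.143 CPM in WT (SD, n = 3 each; exact two-sided permutation p = 0.10, adjusted p = 0.23). The groups did not overlap, with the KO libraries higher, which is the opposite direction to Trbv12-1.

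Trbv13-2, a gene of the Vβ8 family, was the most abundant of the residual beta V genes. It had 19, 27 and 25 counts in KO replicates 4, 5 and 6, against 13, 10 and 7 in WT replicates 1, 2 and 3. All KO libraries lay above all WT libraries, at 0.538 ± 0.122 CPM in KO and 0.220 ± 0.0693 CPM in WT (SD, n = 3 each). The log2 fold was 1.28 (SE 0.34; edgeR adjusted p = 0.60), and DESeq2 gave an adjusted p of 0.46, so neither tool called it. Per 1000 counts of Trbv12-1 there were 4.12 ± 0.918 counts of Trbv13-2 in KO and 0.992 ± 0.225 in WT (SD, n = 3 each; exact two-sided permutation p = 0.10, adjusted p = 0.23), a ratio that also holds the lower Trbv12-1 of the KO libraries.

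Trbv12-2, the second Vβ5 gene, had 9, 7 and 9 counts in KO, against 8, 6 and 3 in WT, and was too low to be tested. Trbv31, the V gene that lies beyond Trbc2 in the opposite orientation, had 11, 4 and 14 counts in KO, against 11, 6 and 10 in WT, with overlapping groups. Trbv19, Trbv29 and Trbv21 followed, each with at most 12 counts in any library. Between 2 and 4 Trbv genes per library reached 10 counts (3.00 ± 1.00 in KO and 2.67 ± 0.577 in WT, SD, n = 3 each; exact two-sided permutation p = 1.0).

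**Figure D1:**
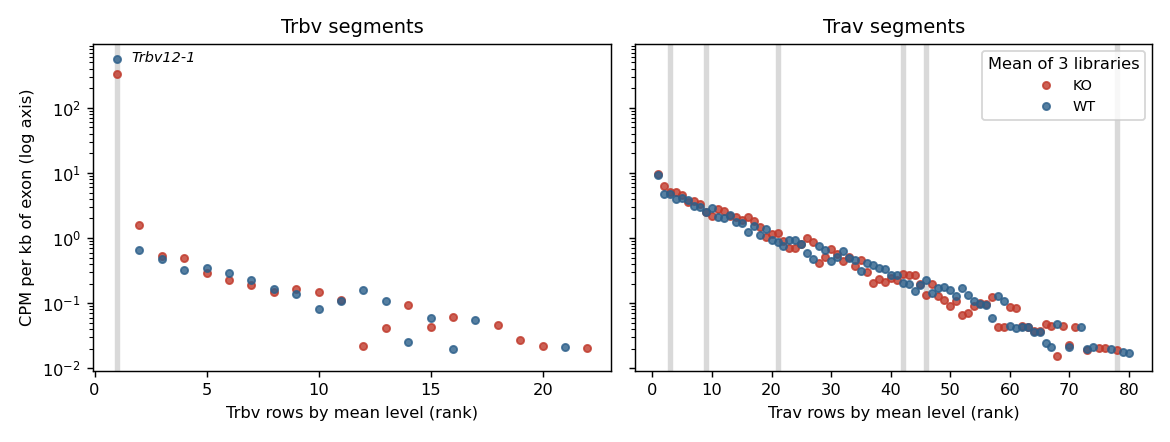
Mean level of each Trbv gene (left) and Trav gene (right) in CPM per kb of annotated exon, on a log axis, against its rank by mean over the 6 libraries, with KO in red and WT in blue. Grey bars mark Trbv12-1 and the Trav14 genes with a count, and a group mean of 0 is not drawn. Trbv12-1 stands alone at 335.6 in KO and 567.2 in WT, whereas the Trav genes decline gradually from 9.48 over both groups and the Trav14 genes are scattered among them.

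The log2 folds of the beta constant genes had opposite signs, and neither gene was called. Trbc2, which follows the Trbj2 cluster used by OT-I, had 17387, 16846 and 14176 counts in libraries labelled KO, against 23599, 19166 and 19351 in libraries labelled WT. This gave 362.5 ± 20.9 CPM in KO and 454.3 ± 61.8 CPM in WT (SD, n = 3 each), a log2 fold of -0.33 (SE 0.099; edgeR adjusted p = 0.60). Every KO library lay under every WT library, and WT replicate 1 was again the highest.

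Trbc1, which follows the Trbj1 cluster, had 13928, 13344 and 12092 counts in KO, against 12407, 11258 and 10941 in WT. The KO libraries lay above the WT libraries without overlap in CPM, at 295.1 ± 7.06 CPM in KO and 253.0 ± 20.9 CPM in WT (SD, n = 3 each; log2 fold 0.22, SE 0.065; edgeR adjusted p = 0.60). By DESeq2 too the adjusted p was above the threshold, at 0.16 for Trbc2 and 0.28 for Trbc1. The sources used here do not say how reads that match both genes were counted, so the split between them is uncertain over their shared bases.

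Ratios within a library need no scaling between libraries. There were 1.248, 1.262 and 1.172 counts of Trbc2 per count of Trbc1 in KO replicates 4, 5 and 6, against 1.902, 1.702 and 1.769 in WT replicates 1, 2 and 3 (exact two-sided permutation p = 0.10, adjusted p = 0.23). Trbv12-1 counts per count of both constant genes were 0.199 ± 0.0019 in KO and 0.311 ± 0.024 in WT (SD, n = 3 each; exact two-sided permutation p = 0.10, adjusted p = 0.23). Against Trbc2 alone they were 0.361 ± 0.010 in KO and 0.484 ± 0.029 in WT (SD, n = 3 each), with the same exact and adjusted p. All 3 ratios were lower in every KO library than in any WT library. They are built from the counts of the same 3 genes and are not independent of each other. Trbc2 per Trbc1 and Trbv12-1 per Trbc2 were among the measures added after seeing the data.

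**Figure D2:**
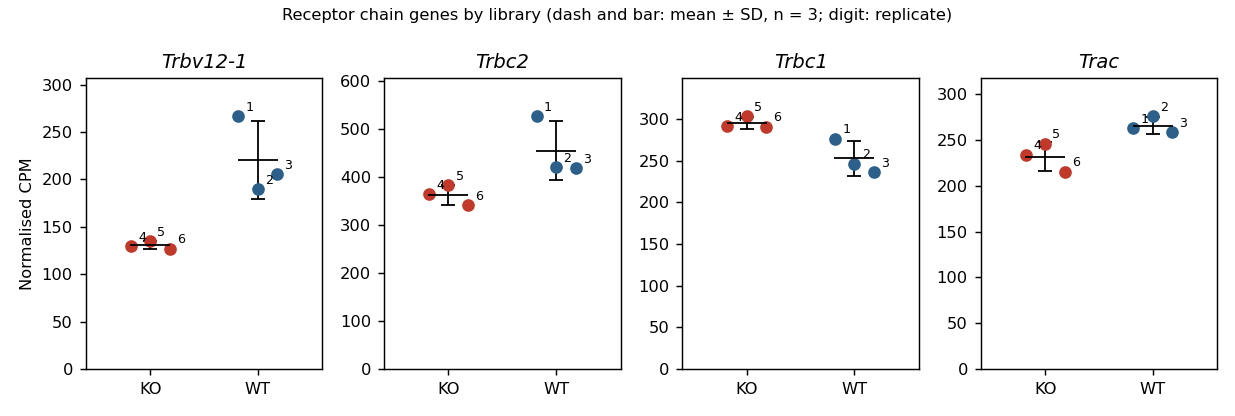
Normalised CPM of Trbv12-1, Trbc2, Trbc1 and Trac in each library, KO in red on the left and WT in blue on the right of each panel, with the mean and SD of 3 libraries in black and the replicate number beside each point. Trbv12-1, Trbc2 and Trac lie lower in KO and Trbc1 higher, with no overlap of groups in any panel, and WT replicate 1 is the highest library for Trbv12-1 and Trbc2.

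Trac, the single alpha constant gene, had 11191, 10831 and 8944 counts in libraries labelled KO, against 11816, 12601 and 11966 in libraries labelled WT. The KO libraries lay under the WT libraries, at 231.8 ± 15.6 CPM in KO and 265.8 ± 9.08 CPM in WT (SD, n = 3 each; log2 fold -0.20, SE 0.060; edgeR adjusted p = 0.60; DESeq2 adjusted p = 0.30), and the difference was not called.

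No Trav gene stood out as Trbv12-1 did among the beta genes. The 128 Trav genes together reached 30.5 ± 1.09 CPM in KO and 27.9 ± 0.0923 CPM in WT (SD, n = 3 each; exact two-sided permutation p = 0.10, adjusted p = 0.23), and the groups did not overlap. That sum is small beside the level of Trac, as a level in CPM. Of the 128, 80 had a count, 24 had at least 10 counts in every library and 29 were tested, of which 23 had positive and 6 negative log2 folds, with a median of 0.25 and none called.

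The Trav14 family, which encodes Vα2, summed to 192, 154 and 143 counts in libraries labelled KO, against 149, 144 and 169 in libraries labelled WT. These are 3.65 ± 0.315 CPM in KO and 3.37 ± 0.252 CPM in WT (SD, n = 3 each). The family took 12.0% ± 0.695 of Trav counts in KO and 12.1% ± 0.924 in WT (SD, n = 3 each; exact two-sided permutation p = 1.0), and the groups overlapped. The Vα2 rows were thus a minority of alpha V counts in every library, at 11.3% to 13.1%.

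Within the family most counts fell on 3 genes. Trav14-1 had 96, 94 and 82 counts in KO, against 73, 83 and 104 in WT, and ranked 3 of 128 by CPM per kb. Trav14-3 had 54, 38 and 39 counts in KO, against 54, 40 and 38 in WT. Trav14-2 had 31, 16 and 16 counts in KO, against 13, 18 and 15 in WT. The groups overlapped for all of these, with edgeR adjusted p of 0.75 to 0.99.

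The other Trav14 copies were at or near 0. Trav14d-3-dv8 had 4, 0 and 4 counts in KO, against 5, 1 and 8 in WT, and Trav14n-3 had 7, 6 and 1 counts in KO, against 4, 2 and 4 in WT. Trav14d-1, Trav14d-2 and Trav14n-2 had no count in any library and Trav14n-1 had 1 count, in KO replicate 6. These last 4 genes have no 50-base stretch that is not also in another transcript. Over all Trav genes, 42 have no such stretch; 37 of the 42 were at 0 everywhere, and together they held 14 of the 7884 Trav counts. A level near 0 for such a copy therefore does not show that its transcript was absent. Whether reads of Vα2 transcripts that match several copies are in the table was not tested.

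**Figure D3:**
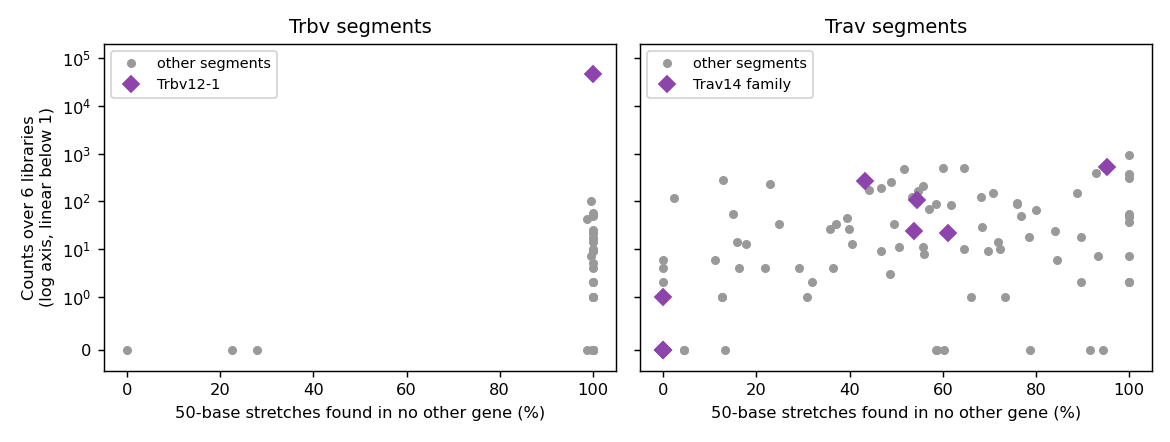
Counts of each Trbv gene (left) and Trav gene (right) summed over the 6 libraries, on a log axis that is linear below 1, against the percentage of its 50-base stretches that occur in no other annotated transcript. Purple diamonds are Trbv12-1 and the 9 Trav14 genes and grey points the other genes. The Trav genes at 0% sit at or near 0 counts, among them 4 Trav14 copies, while Trbv12-1 at 100% has by far the most counts of the Trbv genes.

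The residual alpha V genes were many and low. Trav21-dv12, a V gene that delta chains can also use, was the most abundant, with 164, 160 and 142 counts in KO, against 153, 148 and 155 in WT. It averaged 3.49 ± 0.124 CPM in KO and 3.33 ± 0.0849 CPM in WT (SD, n = 3 each; log2 fold 0.07, edgeR adjusted p = 0.90), and its level per kb was the highest of the Trav genes. The Trav14 rows summed to a similar 3.65 CPM in KO and 3.37 CPM in WT. Of those 9 rows, 4 have no 50-base stretch of their own, while all stretches of Trav21-dv12 occur in no other transcript. These levels are thus not measured alike, and the Trav14 sum may leave out Vα2 reads.

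Trav3-3 had 112, 100 and 73 counts in KO, against 73, 77 and 75 in WT. Trav8-2, which is annotated as a pseudogene, had 113, 89 and 81 counts in KO, against 69, 78 and 70 in WT (log2 fold 0.41, SE 0.16, edgeR adjusted p = 0.67). Trav7-6 had 17, 16 and 12 counts in KO, against 10, 10 and 5 in WT (log2 fold 0.87, SE 0.35; edgeR adjusted p = 0.68). In CPM all of these lay higher in KO without overlap, and none was called. Of the 29 tested Trav genes, 5 lay higher in KO without overlap and 1 lower, against 6.68% and 6.07% of all genes. The lower one, Trav6-3, named after its values were seen, had 45, 42 and 29 counts in KO, against 43, 57 and 59 in WT (log2 fold -0.42, edgeR adjusted p = 0.70). From 28 to 33 Trav genes per library reached 10 counts (29 ± 1.73 in KO and 30.3 ± 2.52 in WT, SD, n = 3 each; exact two-sided permutation p = 0.70, adjusted p = 0.86).

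The V genes of the invariant receptors were almost without counts. Trav11 and its copy Trav11d, used by NKT cells, had at most 2 counts in any library, though neither has a 50-base stretch of its own. Trav1, used by MAIT cells, had at most 1 count. Traj18, the J segment of the NKT receptor, had 36, 47 and 30 counts in KO, against 44, 44 and 47 in WT. By CPM per kb it ranked 32 of 60 Traj genes, at 13.9 beside a median of 14.3, so it did not stand out among them.

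Reads fell on nearly every Traj gene. Of 60 Traj genes, 53 had at least 10 counts in every library, and levels per kb ran from 2.31 (Traj55) through a median of 14.3 to 28.7 (Traj14). Both ends are annotated pseudogenes, and without pseudogenes the range was 3.69 (Traj57) to 25.4 (Traj6). Traj14 is only 34 bases long, and its 0.975 CPM lay under the 1.57 CPM of Traj6. Traj33, the OT-I segment, had 35, 46 and 36 counts in KO, against 36, 35 and 30 in WT, and ranked 31 of 60. It took 1.76% ± 0.164 of Traj counts in KO and 1.61% ± 0.171 in WT (SD, n = 3 each; exact two-sided permutation p = 0.30, adjusted p = 0.48), and was in the middle of the range.

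The Traj genes farthest from Trac had the lowest median level. Within 20 kb upstream of Trac the 17 Traj genes had a median of 17.0 CPM per kb in KO and 16.3 in WT. From 20 to 40 kb the 20 genes had medians of 16.2 in KO and 15.7 in WT, and from 40 to 70 kb the 23 genes had 10.01 in KO and 7.53 in WT. These are descriptions over genes, with no test. Of 59 tested Traj genes 41 had positive and 18 negative log2 folds (median 0.09). Only 1, Traj59, had an unadjusted edgeR p under 0.05, against 3.82% of all genes higher and 3.44% lower. Traj59 lies at the far end of the cluster and had 33, 40 and 45 counts in KO, against 26, 24 and 18 in WT (log2 fold 0.84, SE 0.27; edgeR adjusted p = 0.61).

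The beta J genes differed by cluster, and Trbj2-7 did not stand out. The 7 Trbj1 genes ran from 159 (Trbj1-7) to 374 CPM per kb (Trbj1-1), and the 7 Trbj2 genes from 24.0 (Trbj2-5) to 125.6 CPM per kb (Trbj2-1), so the clusters did not overlap. The Trbj1 cluster held 82.6% ± 0.862 of Trbj counts in KO and 82.3% ± 1.69 in WT (SD, n = 3 each; exact two-sided permutation p = 0.90, adjusted p = 1.0). Trbj2-7 had 186, 207 and 179 counts in KO, against 191, 183 and 188 in WT, ranked 9 of 14 and took 3.14% ± 0.0691 of Trbj counts in KO and 3.399% ± 0.391 in WT (SD, n = 3 each; exact two-sided permutation p = 0.40, adjusted p = 0.53).

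All 14 Trbj genes had positive log2 folds, with a median of 0.14, and none was called. Trbj1-5 had 898, 892 and 849 counts in KO, against 798, 823 and 651 in WT (log2 fold 0.25, edgeR adjusted p = 0.68). It was the 1 of 14 Trbj genes whose groups did not overlap, against 6.68% of all genes higher and 6.07% lower. Trbd1, the D segment before the Trbj1 cluster, had 634, 609 and 555 counts in KO, against 590, 590 and 505 in WT, or 13.5 ± 0.315 CPM in KO and 12.3 ± 1.24 CPM in WT (SD, n = 3 each; log2 fold 0.13, edgeR adjusted p = 0.76). Trbd1 was thus above Trbd2, which had 30 to 62 counts in KO and 32 to 41 in WT. The 74 alpha and beta J genes are 29 to 72 bases long and Trbd1 is 12 bases long, so a read counted on one extends beyond it, and reads of rearranged and of unrearranged transcripts cannot be told apart from these counts.

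**Figure D4:**
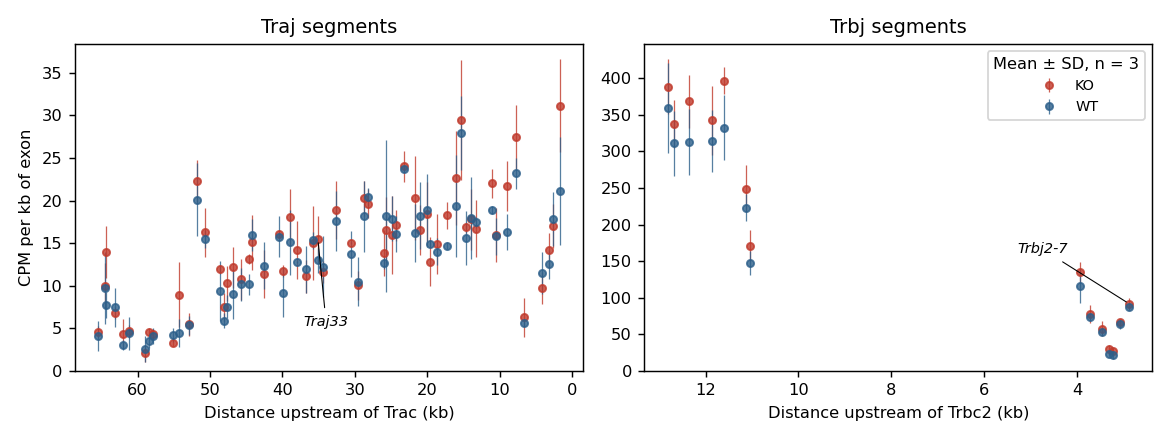
Level of each Traj gene (left, by distance upstream of Trac) and each Trbj gene (right, by distance upstream of Trbc2) in CPM per kb of exon, mean ± SD of 3 libraries, with KO in red and WT in blue and the constant gene to the right. Traj33 lies within the spread of its neighbours, and Trbj2-7 lies in the lower cluster, near Trbc2, under all Trbj1 genes.

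Delta and gamma chains form the receptor of the gamma delta T cells. Trdc, the delta constant gene, had 1620, 2152 and 1786 counts in KO, against 1794, 2132 and 2308 in WT (41.9 ± 7.58 CPM in KO and 45.5 ± 5.03 CPM in WT, SD, n = 3 each; log2 fold -0.12, edgeR adjusted p = 0.85). Its annotated exons hold 3865 bases, and its level over all libraries was 11.3 CPM per kb, beside a median of 14.3 for the Traj genes. Trdc overlaps Trdv5 on the other strand, and with the strand setting not given their reads may not be separated. The delta V genes Trdv1, Trdv2-2 and Trdv5 were tested, with log2 folds of 0.04 to 0.15, and Trdv4 and Trdv3 stayed under the filter. Trdj2 had 15, 20 and 16 counts in KO, against 27, 22 and 31 in WT, with no overlap (log2 fold -0.60; edgeR adjusted p = 0.69).

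The gamma constant genes summed to 56, 103 and 105 counts in libraries labelled KO, against 116, 115 and 245 in libraries labelled WT, where WT replicate 3 was far above the others. In CPM this was 2.01 ± 0.735 in KO and 3.46 ± 1.58 in WT (SD, n = 3 each; exact two-sided permutation p = 0.20, adjusted p = 0.40), with overlapping groups. The difference of -1.45 CPM became -0.538 CPM without WT replicate 3, and ran down to -1.92 CPM with other libraries left out. Tcrg-C1 had 4, 10 and 8 counts in KO, against 13, 12 and 27 in WT (log2 fold -1.18, SE 0.49; edgeR adjusted p = 0.68). Tcrg-C4 had 27, 50 and 63 counts in KO, against 63, 82 and 153 in WT (log2 fold -1.02; edgeR adjusted p = 0.69). Tcrg-C2 had a log2 fold of -0.23, which became 0.25 without WT replicate 3, and Tcrg-C3 had 4 counts in all.

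The 6 gamma V genes among the members, Tcrg-V3 to Tcrg-V7 and Trgv2, had almost no counts. The gamma V gene Tcrg-V1 is not among them, so its level is not known here. Tcrg-V3 and Tcrg-V7 were at 0 in all libraries, Tcrg-V4, Tcrg-V5 and Tcrg-V6 had 1 count each, and Trgv2 had 3, 2 and 3 counts in KO, against 1, 3 and 14 in WT. The same WT replicate 3 also had the most Foxp3, with 91, 134 and 200 counts in KO, against 211, 157 and 533 in WT. Other CD4 T cell markers did not follow Foxp3. WT replicate 3 had the fewest counts of Cd4 (17) and Cd40lg (57), and Zbtb7b was highest in WT replicate 2 (743, against 657 in WT replicate 3). Gamma delta markers as a list, 8 genes with Trdc and the gamma constant genes among them, summed to 42.2 to 59.4 CPM in KO and 48.5 to 65.1 CPM in WT. The part of such cells in the gamma gene values was not tested.

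**Figure D5:**
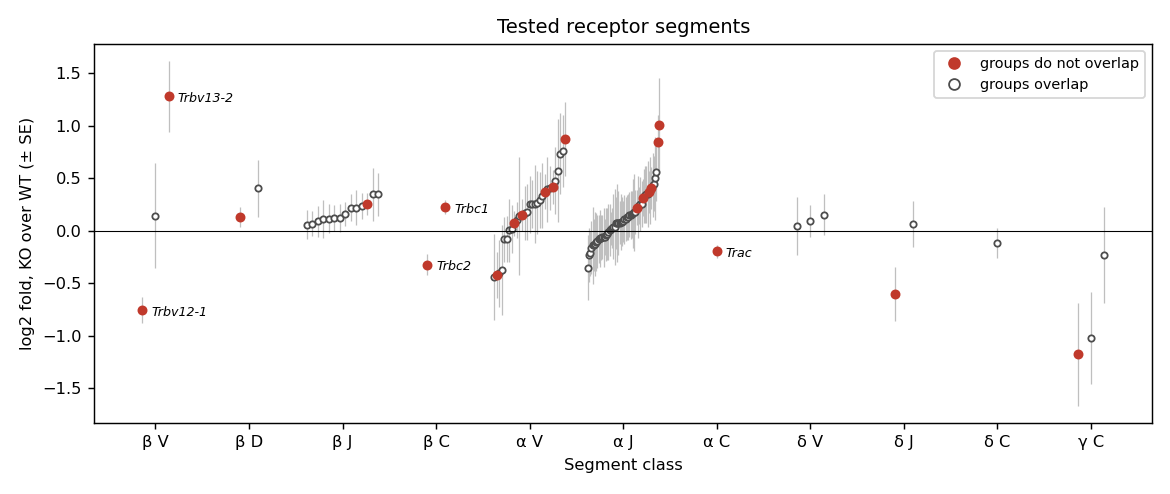
Log2 fold, KO over WT, with its SE for each of the 119 tested receptor genes, by chain and segment type and sorted within each. Filled red points are genes whose 3 KO and 3 WT libraries do not overlap. The beta J genes and most alpha J and alpha V genes lie above 0, while Trbv12-1, Trbc2, Trac and the gamma constant genes lie below it.

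The signalling and coreceptor partners of the receptor showed no called difference. All 7 genes of the list (Cd3d, Cd3e, Cd3g, Cd247, Cd8a, Cd8b1 and Cd4) had positive log2 folds and none was called by edgeR or DESeq2, with overlapping summed levels of 1536 to 1601 CPM in KO and 1399 to 1548 CPM in WT. Among all genes 7960 of 15186 folds were positive, and the groups overlapped for Cd3e, Cd3g, Cd8a and Cd4. Cd247, the zeta chain, averaged 132.9 ± 1.84 CPM in KO and 119.3 ± 2.27 CPM in WT (SD, n = 3 each; log2 fold 0.16, edgeR adjusted p = 0.60), without overlap. Cd3e averaged 242.3 ± 22.5 CPM in KO and 210.6 ± 10.9 CPM in WT (SD, n = 3 each; log2 fold 0.20, edgeR adjusted p = 0.66). The negative log2 folds of Trbv12-1, Trbc2 and Trac stood beside positive ones for these partners. Positive folds were also found within the receptor genes, for Trbc1 (0.22), all 14 Trbj genes and 23 of 29 tested Trav genes. The cause of these differences was not tested.

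Of the 4 genes listed for receptor gene assembly and its thymocyte stage, 3 were at or near 0. Rag2 had no count in any library and Rag1, the partner with which it cuts receptor genes, had at most 4 counts. Ptcra, the partner of the beta chain in immature thymocytes, had at most 3 counts. Dntt, which adds bases at the joins, had 48, 44 and 80 counts in KO, against 49, 87 and 72 in WT (log2 fold -0.22, edgeR adjusted p = 0.89).

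Markers of other cells that a spleen preparation can hold were measured beside these values. Of the B cell markers, the immunoglobulin gene Ighm averaged 305.7 ± 18.6 CPM in KO and 308.7 ± 3.78 CPM in WT, while Cd79a, a signalling chain of the B cell receptor, averaged 4.08 ± 1.11 CPM in KO and 6.90 ± 4.07 CPM in WT (SD, n = 3 each). Markers of myeloid cells summed to 8.68 to 16.1 CPM in KO and 6.35 to 9.85 CPM in WT, of dendritic cells to 5.84 to 11.0 in KO and 6.06 to 9.24 in WT, and of CD4 T cells to 11.2 to 16.9 in KO and 13.4 to 27.3 in WT. NK cell markers were almost all Eomes, which activated CD8 T cells also express, with at most 3 counts of the NK receptor gene Ncr1 in any library. NKT and MAIT markers reached at most 0.216 CPM and red cell markers at most 0.281 CPM. The part of these cells in the V gene values was not tested.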

How the data were processed

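RNA of stimulated OT-I CD8 T cells was sequenced in 6 libraries, 3 labelled KO and 3 labelled WT. The deposited table holds raw counts of reads per gene, with a column for each library. HTSeq 0.9.1, DESeq2 and the mm10 build are named without roles, per the submitters' processing notes. Aligner, annotation, strand setting and read length were not given in the sources used here, so reads shared by near-identical copies or by overlapping genes cannot be assigned with certainty.

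Groups follow the genotype in the sample titles, and 0 columns were left unused. No pair of libraries was alike within sampling noise (mean chi-square per gene of 21.2 to 58.0). Closeness did not follow the labels. WT replicates 2 and 3 (21.17) and KO replicate 4 with WT replicate 1 (21.22) were closest, and WT replicates 1 and 2 (57.96) were farthest apart. In R 4.3.3, edgeR 4.0.16 was fitted to the counts with glmQLFit (robust) and tested with glmQLFTest after filterByExpr and TMM scaling. Calls had a Benjamini-Hochberg adjusted p under 0.05 over 15186 genes. CPM use the TMM factors, and CPM per kb divide by annotated exon length. Detected means at least 10 counts. For values of 1 per library, exact permutation tests (two-sided) were adjusted over 16 measures, 9 of which were added after seeing the data. DESeq2 1.42.0 and limma-voom (limma 3.58.1), other scalings, filters and each library left out were alternatives. The fits were tested on simulated data. Symbols, lengths and sequences came from GENCODE M21 on GRCm38, the mm10 assembly, and 50-base stretches were compared on both strands over all its transcripts.

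The genes, lists and tests were chosen with earlier results of these data known. Named were the constant genes, the OT-I segments, the 5 other most abundant genes of each V and J type, called members and up to 5 members per direction with the smallest p, the invariant receptor segments and 2 gene lists, of which the text describes those that bear on its comparisons. Trbd1, Trbd2, Trgv2 and Traj14 and other ends of a range were named after their values were seen. One marker gene is not reported here.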

Additional observations from a re-analysis of the deposited data

How the results depend on the processing

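No paired analysis was possible because the replicate numbers, 1 to 3 in WT and 4 to 6 in KO, are not shared between the genotypes. The count of receptor genes called was 0 with edgeR under every scaling and filter and with limma-voom, 1 with DESeq2, and 0 to 1 with each library left out in turn, the 1 being without WT replicate 1. Over all genes the count of 1 became 10 without a low-count filter, 96 with DESeq2, and 1 to 119 with each library left out (119 without WT replicate 1, 2 without WT replicate 2). The cause was not tested.

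With all other Trbv genes as the denominator in place of Trbc1 and Trbc2, the ratio for Trbv12-1 was 79.8 ± 8.74 in KO and 172.4 ± 31.5 in WT (SD, n = 3 each; difference -92.6), since that denominator is far smaller. With each library left out, the difference KO minus WT ran from -0.125 to -0.101 for Trbv12-1 per Trbc count, from -0.724 to -0.589 percentage points for the Trbv12-1 share, from -0.515 to 0.385 for the Trav14 share, from 0.0716 to 0.249 for the Traj33 share, from -0.445 to -0.0556 for the Trbj2-7 share, from -2.5 to 0 for Trav genes detected and from -0.167 to 0.833 for Trbv genes detected.

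Of the alternatives for single genes, 860 kept direction and side of the threshold, 2 made Trbv12-1 a call, and 22 changed sign, all with a library left out and none called. With each library left out, the log2 fold ran from -0.588 to 0.248 for Tcrg-C2, -0.244 to 0.015 for Trdc, -0.100 to 0.207 for Trav14-3, -0.255 to 0.087 for Trav15-1-dv6-1, -0.277 to 0.506 for Trbv31, -0.269 to 0.209 for Trdv5, -0.004 to 0.134 for Trbj2-7, -0.019 to 0.219 for Trbj1-1, -0.047 to 0.054 for Traj22 and -0.010 to 0.313 for Traj28. Among markers it ran from -0.400 to 0.016 for Sox13, -0.122 to 0.212 for Eomes, -0.618 to 0.218 for Ms4a1, -0.064 to 0.021 for Ighm, -0.284 to 0.128 for Itgam and -0.213 to 0.181 for Flt3. Counts of the residual V genes were low (7 to 27 a library for Trbv13-2), which limits their precision.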
